A study of Mus musculus with 12 samples.

Results

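The receptors through which sensory neurons of the dorsal root ganglion (DRG) read neurotrophins and ligands of the GDNF family were examined in ATAC-seq data, in which a transposase cuts open chromatin. The 7 genes were Ntrk2, Ntrk3, Ngfr, Ret, Gfra1, Gfra2 and Gfra3, of 21887 protein-coding genes in the RefSeq table of the mm10 build. They were chosen by name, and every deposited peak summit inside the gene or within 50 kb of either gene end was taken as its window. The windows held 138 summits in all. Gene class and receptor names below come from general knowledge, and only the summits come from these data.

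Bulk lumbar ganglia of mice were sampled in 4 groups of 3 libraries: Silc1-/- after crush of the sciatic nerve, Silc1-/- after sham operation, wild type after crush, and wild type after sham operation. Silc1 is a long noncoding RNA studied for its part in nerve regeneration. Per the labels' protocols each library came from 6 ganglia of levels L4 to L6, and the strain text names C57black6 Ola HSD males beside mice bred in house, without saying which gave which library. Mouse age was not given in the sources used here, nor were the time from crush to sampling and any pooling of animals. Each group had 1 list of summits. Without replicate lists there is no error from animal to animal, and differences between lists are described without a test. The lists held 35815 summits for Silc1-/- injured, 48332 for Silc1-/- sham, 43841 for wild-type injured and 27279 for wild-type sham ganglia, and the read depth behind them is unknown. A site that is open in fewer cells and a site that is less open in each cell cannot be told apart in whole ganglia.

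Neurotrophins bind Trk receptor tyrosine kinases and the shared receptor p75, and GDNF family ligands bind GFRα co-receptors that hand the signal to the tyrosine kinase RET. In adult ganglia these receptors divide the sensory neurons. TrkC (Ntrk3) marks proprioceptors and some touch neurons, TrkB (Ntrk2) marks touch neurons with lightly myelinated axons, RET with GFRα1 or GFRα2 marks non-peptidergic nociceptors and part of the mechanoreceptors, and GFRα3 marks a part of the peptidergic nociceptors. Satellite glia and Schwann cells also use p75, and truncated TrkB occurs in glia, so sites at these genes need not come from neurons.

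Before the receptors, the ganglion's own markers were checked. Of 9 sensory neuron markers, 3 in Silc1-/- injured, 8 in Silc1-/- sham, 5 in wild-type injured and 5 in wild-type sham had a summit within 1 kb of a gene end, and Isl1, Tubb3 and Uchl1 had one in every list. Among 10 Schwann cell and satellite glia markers the numbers were 2, 4, 6 and 2 in the same order of lists. Of 8 macrophage markers 0, 0, 1 and 0 had one, and of 5 skeletal muscle markers, a tissue outside the ganglion, 2, 1, 2 and 1 did, with Ckm in every list. Prrxl1 had none in any list, and Prph, Pou4f1, Avil, Snap25 and Rbfox3 had none in the Silc1-/- injured list. Of these, Avil and Rbfox3 also had none in either wild-type list, Snap25 none in wild-type injured and Prph none in wild-type sham. Of 7 endothelial and mural cell markers 0, 1, 2 and 0 had one, and of 5 fibroblast markers 0, 1, 1 and 1. Over all coding genes the shares were 45.6%, 50.9%, 51.9% and 46.2% in the same order of lists, and differences from these were not tested. Some sensory neuron genes were thus among the open gene ends. So were the muscle genes Ckm, Myod1 (Silc1-/- injured alone) and Tnnt3 (wild-type injured alone).

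The promoters of Ntrk2, Ngfr and Gfra1 are shown as the receptors with an entry in the promoter table. They hold a start site found in every list, one found in all lists but 1, and one with no summit inside the promoter window. Each runs from 250 bases before to 50 bases after a transcription start (RefSeq, GRCm38.p6, the same build as mm10), 5′ to 3′ on the gene's strand, so that base 251 is the start. Capitals mark the GC box, GGGCGG on either strand.
Ntrk2, chr13:58806319-58806618, + strand: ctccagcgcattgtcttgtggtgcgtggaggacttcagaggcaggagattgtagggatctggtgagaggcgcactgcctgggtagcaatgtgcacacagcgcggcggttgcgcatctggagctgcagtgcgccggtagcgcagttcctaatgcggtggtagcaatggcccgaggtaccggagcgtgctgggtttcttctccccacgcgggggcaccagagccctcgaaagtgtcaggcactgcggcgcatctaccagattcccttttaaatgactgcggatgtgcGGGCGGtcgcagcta
Ngfr, chr11:95587649-95587948, − strand: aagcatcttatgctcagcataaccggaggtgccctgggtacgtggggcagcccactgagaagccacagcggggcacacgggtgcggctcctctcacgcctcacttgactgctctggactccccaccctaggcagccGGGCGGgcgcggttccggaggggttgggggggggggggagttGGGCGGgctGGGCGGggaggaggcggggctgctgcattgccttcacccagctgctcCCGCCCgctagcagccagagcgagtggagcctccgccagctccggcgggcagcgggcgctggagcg
Gfra1, chr19:58455349-58455648, − strand: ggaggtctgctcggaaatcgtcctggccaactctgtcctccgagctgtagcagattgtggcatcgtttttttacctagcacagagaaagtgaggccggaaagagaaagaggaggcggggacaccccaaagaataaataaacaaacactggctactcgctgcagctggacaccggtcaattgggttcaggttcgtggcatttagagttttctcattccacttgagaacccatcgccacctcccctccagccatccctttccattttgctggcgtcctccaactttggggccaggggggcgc

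The Ngfr promoter was the richest in G and C (71.7%), followed by Ntrk2 (61.3%) and Gfra1 (54.0%), against a median of 52.7% over 32851 promoters of the table. CpG pairs occurred at 0.607, 0.835 and 0.549 times the number that base content alone gives in Ngfr, Ntrk2 and Gfra1, where the table's median was 0.384. The GC box matched at 4 places in Ngfr, 1 in Ntrk2 and 0 in Gfra1, and 35.7% of all promoters held at least 1 match. Both strands were also searched for the TATA box (TATAAA), the CCAAT box (CCAAT), the core of the cyclic AMP response element (TGACGT), the AP-1 site (TGANTCA), the E-box (CANNTG), the RUNX site (TGTGGT), a homeodomain site (TAATTA) and a SOX site (ACAAAG). E-boxes were found in all 3 promoters, as in 72.3% of the table, the RUNX letters in Ntrk2 (16.8% of the table) and the CCAAT box in Gfra1 (37.4%). The remaining 5 motifs had no match in these windows; they occur in 13.6% (TATA), 7.51% (TGACGT), 7.81% (AP-1), 5.29% (TAATTA) and 18.7% (SOX) of promoters. A match is a match of letters and says nothing of binding.

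Among the receptors, Ntrk2 had an open gene end in every list and Ntrk3 and Ret in none. A summit within 1 kb of either gene end was found for 2 of 7 receptors in Silc1-/- injured (45.6% of all coding genes), 5 of 7 in Silc1-/- sham (50.9%), 2 of 7 in wild-type injured (51.9%) and 3 of 7 in wild-type sham ganglia (46.2%). Over coding genes, 40.8% had one in every list and 43.4% in none. With only 7 genes, the 95% Wilson interval of the lowest of these shares runs from 8.22% to 64.1%, so each share is within counting error of its background. The 5 in Silc1-/- sham became 1 at equal list lengths and at scores of at least 5. Each summit carries a score, the authors' −log10 of a p or q value for that summit. Of the 5 in Silc1-/- sham ganglia, the summit of Gfra1 (score 2.31) stood above 10.0% of the summits of that list and that of Gfra3 (2.42) above 14.3%.

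Ntrk2, which encodes the BDNF receptor TrkB, spans 327.5 kb of chromosome 13 (58806472 to 59133970). Its start carried a summit in all 4 lists within 51 bp of each other: at 58806536 in Silc1-/- injured (score 3.66), 58806492 in Silc1-/- sham (13.1), 58806493 in wild-type injured (7.33) and 58806485 in wild-type sham ganglia (4.89). On the printed promoter these are bases 218, 174, 175 and 167, so all lie before the start at base 251. They are nonetheless 13 to 64 bp inside the gene, whose lower end lies upstream of that start. A further site in all lists lay 60.2 kb inside the upper gene end, at 59073753 in Silc1-/- injured (5.80), 59073782 in Silc1-/- sham (8.73), 59073729 in wild-type injured (8.97) and 59073808 in wild-type sham (4.89). It coincides with an end of the long noncoding RNA gene Gm53063, 15 bp away, which lies within Ntrk2.

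Past the 3′ side of Ntrk2, 5.1 to 5.7 kb beyond the gene, every list had a summit again, and here the Silc1-/- injured list gave its highest score of the window. The summits were at 59139234 in Silc1-/- injured (12.3), 59139272 in Silc1-/- sham (6.40, with a second at 59139021), 59139213 in wild-type injured (6.67) and 59139670 in wild-type sham (6.33). The wild-type sham summit lay 398 bp from the nearest of the others, beyond the 200 bp used for joining, and was counted as a locus of its own. The rest of the gene held weaker sites: 58841175 in Silc1-/- sham (4.97) and 58841171 in wild-type sham (4.89) in both sham lists alone, and 6 others in 1 or 2 lists with scores of at most 3.63. In total Ntrk2 had 4 summits in Silc1-/- injured, 9 in Silc1-/- sham, 6 in wild-type injured and 4 in wild-type sham ganglia.

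Ntrk3, which encodes the neurotrophin-3 receptor TrkC, is the longest of the receptors (401.0 kb, chromosome 7, 78179986 to 78581034). It had 3 sites in all lists and none of them at a gene end. The first, 101.2 to 101.3 kb inside the gene, was at 78281236 in Silc1-/- injured (3.09), 78281322 in Silc1-/- sham (8.78), 78281300 in wild-type injured (3.82) and 78281309 in wild-type sham ganglia (2.32). The second, 141 kb from the upper end, was at 78439868 in Silc1-/- injured (6.55), 78439873 in Silc1-/- sham (11.2), 78439871 in wild-type injured (5.19) and 78439746 in wild-type sham (7.08). The third lay 15.0 kb outside the gene, inside the long noncoding RNA gene E430016F16Rik, where the 4 summits fell within 7 bp. Its scores were 5.01 in Silc1-/- injured, 8.58 in Silc1-/- sham, 8.50 in wild-type injured and 5.59 in wild-type sham.

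At the upper end of Ntrk3 the summits were weak and did not coincide. The Silc1-/- sham list had 78578343 (3.55), 2.7 kb inside the gene, and the wild-type injured list had 78579119 (3.01) and 78577428 (3.05), all more than 1 kb from the end. Another site, at 78416344 in Silc1-/- injured (5.80), 78416417 in wild-type injured (1.99) and 78416304 in wild-type sham (3.54), was missing from Silc1-/- sham. Silc1-/- sham ganglia alone had 78450330 (8.73), the highest score of any receptor site held by 1 list, with the nearest summit of another list 10459 bp away. In total the window held 7 summits in Silc1-/- injured, 11 in Silc1-/- sham, 7 in wild-type injured and 4 in wild-type sham ganglia, and 10 of its 16 loci were in 1 list.

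Ngfr, which encodes p75, the receptor shared by all neurotrophins, is short (18.9 kb, chromosome 11, 95568818 to 95587698). Its start site was open in 3 lists: at 95587675 in Silc1-/- sham (3.44), 95587702 in wild-type injured (11.2) and 95587700 in wild-type sham ganglia (4.95). These are bases 274, 247 and 249 of the printed promoter, on either side of the start at base 251. Silc1-/- injured ganglia had no summit at the start, and their nearest lay 34.9 kb from the gene. Summits inside Ngfr were in Silc1-/- sham alone, since the start summits of wild-type injured and wild-type sham lay 4 and 2 bp outside it. The 2 sites in all lists lay beyond the 3′ end, inside no gene of the table. The nearer, 34.8 kb away, was at 95533921 in Silc1-/- injured (7.02), 95533926 in Silc1-/- sham (11.8), 95533993 in wild-type injured (12.5) and 95533949 in wild-type sham (12.9). The farther, 47.8 kb away, was at 95520893 in Silc1-/- injured (7.02), 95520969 in Silc1-/- sham (4.82), 95520906 in wild-type injured (9.05) and 95520934 in wild-type sham (7.08). Inside the gene the Silc1-/- sham list alone had 95574884 (8.42) and 95585355 (5.87). The window held 4, 7, 3 and 3 summits in Silc1-/- injured, Silc1-/- sham, wild-type injured and wild-type sham.

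Ret, which encodes the kinase that signals for all GFRα co-receptors, spans 46.0 kb of chromosome 6 (118151748 to 118197744). No list had a summit within 1 kb of either end. The site with the highest score of any receptor window lies there, at 118139231 in Silc1-/- injured (17.4), 118139164 in Silc1-/- sham (17.0), 118139236 in wild-type injured (49.3) and 118139261 in wild-type sham ganglia (25.7), but it is 12.5 kb outside Ret and 96 bp from an end of Csgalnact2, a gene for a chondroitin sulfate enzyme. Ret itself had 1 site inside, at 118179837 in Silc1-/- sham (6.40), 118179782 in wild-type injured (16.0) and 118179778 in wild-type sham (4.72). That site and another 17.6 kb beyond the upper end, at 118215362 in Silc1-/- sham (3.63), 118215388 in wild-type injured (4.49) and 118215458 in wild-type sham (4.89), were both missing from Silc1-/- injured. The Silc1-/- injured list had 2 summits in the window, at Csgalnact2 and at 118221750 (3.09), against 6 in Silc1-/- sham, 3 in wild-type injured and 3 in wild-type sham.

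Gfra1, which encodes the GDNF co-receptor GFRα1, had the sparsest window (220.4 kb, chromosome 19, 58235581 to 58455946). The Silc1-/- injured list had 0 summits, Silc1-/- sham 4, wild-type injured 3 and wild-type sham 3. The highest score was 6.27, at 58284047 in wild-type sham ganglia, and no locus was in all lists. A locus in 3 lists, at 58283463 in Silc1-/- sham (2.96), 58283558 in wild-type injured (2.57) and 58283593 in wild-type sham (3.49), also lies within Gm46650, a coding gene that overlaps Gfra1. The Silc1-/- sham summits at 58455786 (2.31) and 58454900 (2.66) lay at -388 bp and 498 bp from the start, outside the printed promoter. The former is 160 bp inside the upper gene end and 363 bp from an end of the gene Gm41876. At a score of at least 5, the window kept 0, 0, 0 and 1 summits in the 4 lists.

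Gfra2, which encodes the neurturin co-receptor GFRα2, spans 89.7 kb of chromosome 14 (70890107 to 70979840) and also had no locus in all lists. At the lower gene end, summits fell within 16 bp at 70889891 in Silc1-/- injured (2.40), 70889907 in Silc1-/- sham (2.80) and 70889894 in wild-type sham ganglia (10.03). A further Silc1-/- sham summit lay at 70890135 (3.33), 28 bp inside the gene. Wild-type injured ganglia had none there. The next site, 4.2 kb inside the gene, was in both wild-type lists alone, at 70894318 in wild-type injured (5.14) and 70894371 in wild-type sham (6.99). The opposite held 39.8 kb from the upper end, where 70940043 in Silc1-/- injured (3.38) and 70940058 in Silc1-/- sham (5.75) had no wild-type counterpart. A Silc1-/- sham summit at 70844084 (5.42) and a wild-type injured one at 70844028 (3.82) lay 46.0 kb outside, in the long noncoding RNA gene Gm34500. The window held 4 summits in Silc1-/- injured, 8 in Silc1-/- sham, 2 in wild-type injured and 2 in wild-type sham.

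Gfra3, which encodes the artemin co-receptor GFRα3, spans 30.5 kb of chromosome 18 (34689898 to 34720387), and no sequence is shown for it. Its window was the densest, at 22.2 summits per 100 kb over the 4 lists together, above 86.7% of coding genes. Of its 29 summits, 14 lay within 1 kb of an end of a neighbouring gene. The 3 loci in all lists sat at the ends of Cdc23 and Cdc25c, both cell cycle genes, and Fam53c, 31.2 to 39.3 kb from Gfra3. Their scores were 11.01, 25.5 and 11.4 in Silc1-/- injured, 17.6, 28.4 and 10.4 in Silc1-/- sham, 32.5, 43.2 and 14.0 in wild-type injured, and 19.02, 18.6 and 13.7 in wild-type sham ganglia.

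Gfra3 itself had summits inside the gene in the Silc1-/- sham list alone, at 34693727 and 34720244, both with a score of 2.42. The nearest site in several lists lay 2.9 kb before the lower end, at 34686865 in Silc1-/- injured (3.73), 34686985 in Silc1-/- sham (2.42) and 34686979 in wild-type sham (2.92), and was missing from wild-type injured. Stronger sites lay 26.6 kb before that end, at 34663348 in Silc1-/- sham (9.55) and 34663299 in wild-type injured (6.67), and 6.6 kb beyond the upper end, at 34726947 in Silc1-/- sham (3.01) and 34727005 in wild-type sham (7.08). The window held 6 summits in Silc1-/- injured, 13 in Silc1-/- sham, 5 in wild-type injured and 5 in wild-type sham.

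**Figure D1:**
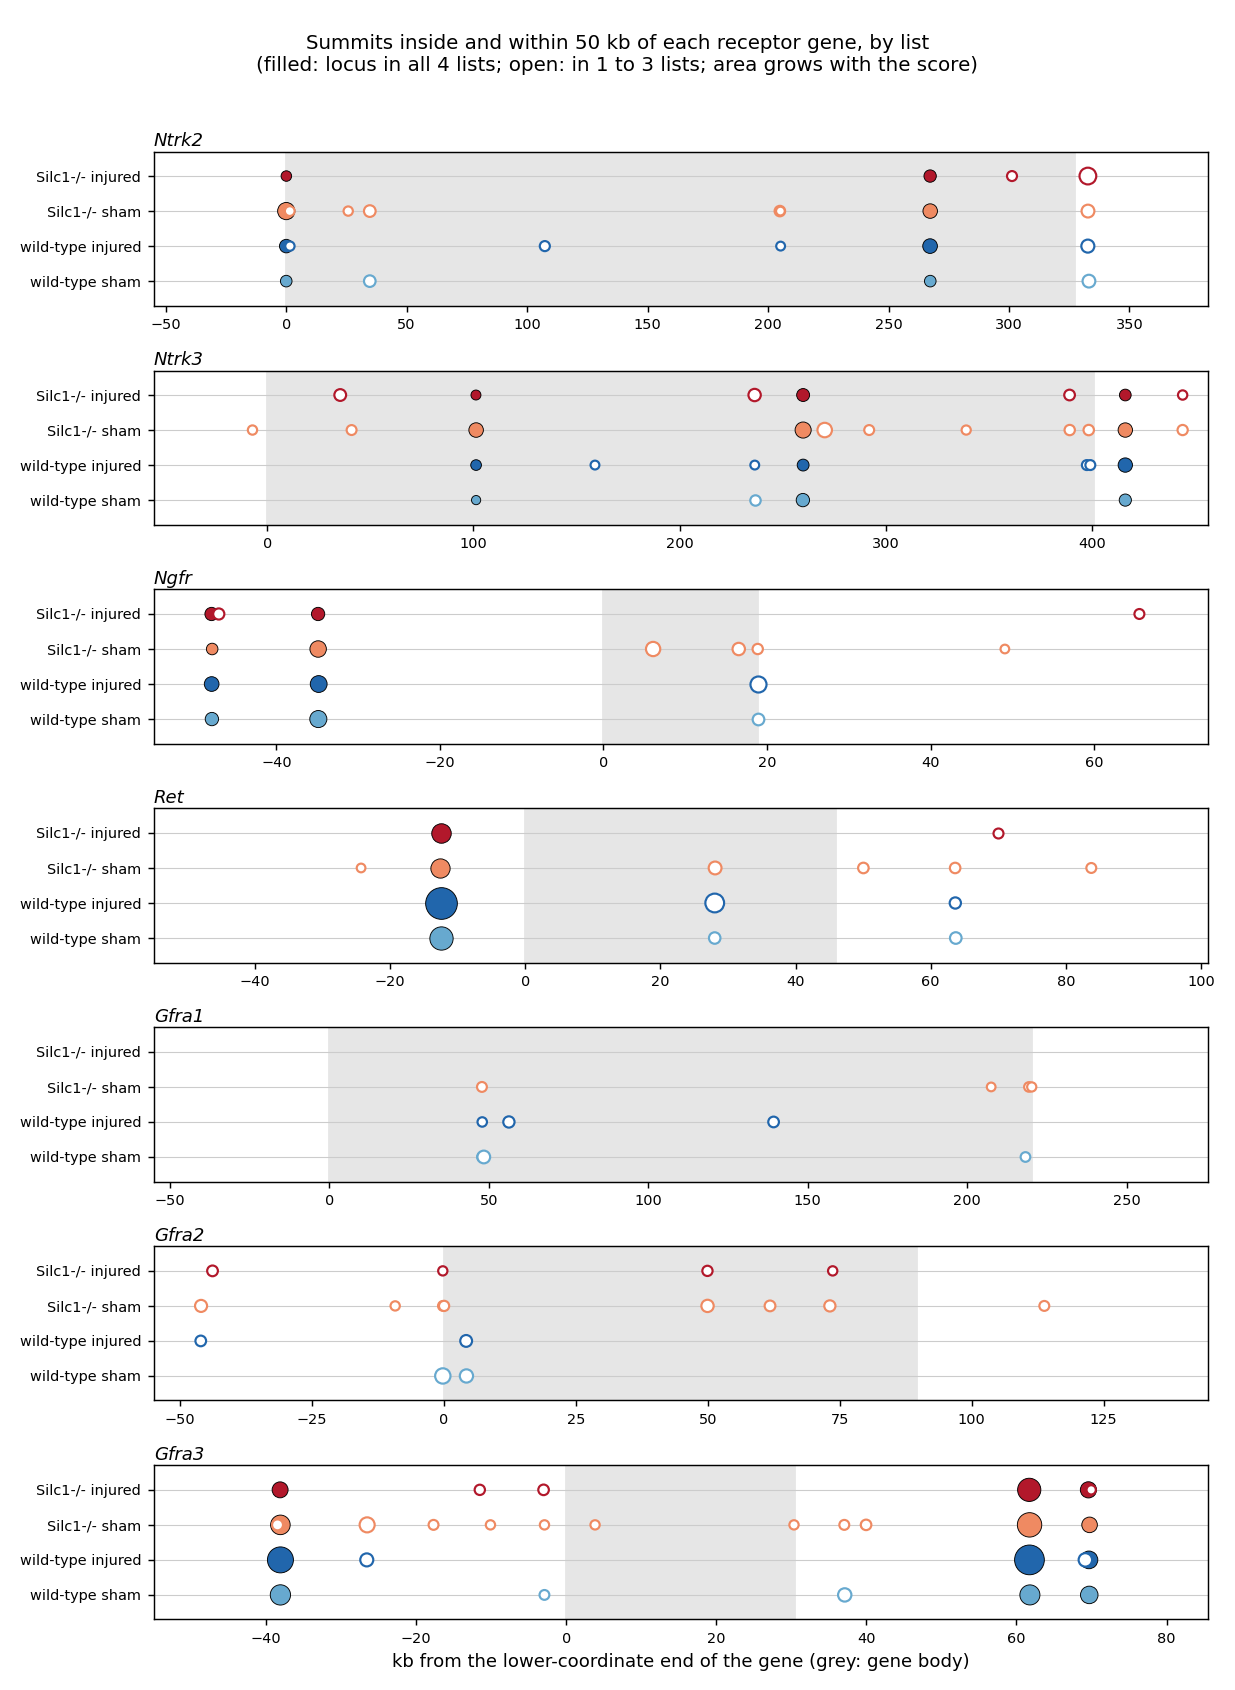
Position of every summit in the 7 receptor windows, in kb from the lower-coordinate gene end (grey, gene body), 1 row per list; symbol area grows with the score. Filled symbols are loci in all 4 lists: 2 in Ntrk2, 3 in Ntrk3, 2 in Ngfr, 1 in Ret, 3 in Gfra3 and none in Gfra1 or Gfra2.

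Across the windows, the share of constant sites was within counting error of the share over all loci. The 138 summits formed 76 loci when summits within 200 bp of the next were joined. Of these, 11 (14.5%, Wilson interval 8.28 to 24.1) were in all 4 lists, against 18.3% of all 78381 loci, and 47 (61.8%, 50.6 to 71.9) were in 1 list, against 52.4%. Of the 11 constant loci, 1 lay at an end of its receptor gene (Ntrk2), 4 at the end of another coding gene, 1 at an end of a long noncoding RNA gene and 5 at no gene end. The same split was not made over all loci. The 4 at other coding genes had top scores of 14.0 to 49.3, and the 5 at no gene end, in Ntrk3 and near Ntrk3 and Ngfr, had 8.58 to 12.9. Among all loci in every list the median top score was 19.9, so all constant sites of the receptors themselves lay below it.

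Loci in 1 list had low scores. Their median was 3.05, close to the 3.18 of all 41042 loci in 1 list, and 40 of 47 were under 5. By list, 28 of the 76 loci were in Silc1-/- sham alone (36.8%, 26.9 to 48.1), where the share over all loci was 21.1%. The other lists alone held 9 (11.8%) in Silc1-/- injured, 7 (9.21%) in wild-type injured and 3 (3.95%) in wild-type sham ganglia, against 10.8%, 16.0% and 4.45% of all loci. The higher share in Silc1-/- sham depended on the setting. With every list cut to its 27279 highest-scoring summits, 5 of 41 loci (12.2%) were in that list alone, against 12.4% of all loci. With a score minimum of 5, 6 of 28 were (21.4%, 10.2 to 39.5, against 15.3%), and with a minimum of 10, 2 of 11 (18.2%, 5.14 to 47.7, against 9.63%). Of the 8 loci in 3 lists, 4 were missing from Silc1-/- injured (5.26%, against 3.4% of all loci), 1 from Silc1-/- sham (1.32%, against 1.75%), 2 from wild-type injured (2.63%, against 1.33%) and 1 from wild-type sham (1.32%, against 4.67%). The 4 were at Ngfr, Ret and Gfra1, with 2 of them at Ret. No locus was in both injured lists alone, and 0 of 76 allows a share of up to 3.95% where 2.72% of all loci are of that kind. Both sham lists alone held 2 (2.63%, against 1.51%), both Silc1-/- lists alone 3 (3.95%, against 4.38%) and both wild-type lists alone 1 (1.32%, against 2.38%).

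As deposited and relative to list length, the receptors had the most summits in Silc1-/- sham ganglia, but this order did not hold at equal list lengths. The 7 windows held 27 summits in Silc1-/- injured, 58 in Silc1-/- sham, 29 in wild-type injured and 24 in wild-type sham ganglia, or 7.54, 12, 6.61 and 8.80 per 10000 summits of the list. At equal list lengths they held 22, 21, 18 and 24 in the same order. The lowest scores kept by this cut were 3.09, 4.29, 4.49 and 1.31 in that order. The wild-type sham list, the shortest, stayed whole, so its count of 24 could not change. Sensory neuron markers had the same order, with 9.49, 13.9, 7.53 and 9.53 per 10000 for 9 genes, and the part of this in the receptors' values was not tested. The markers were not counted at equal list lengths, and single markers differed. Pou4f1, a transcription factor gene of sensory neurons, had 0 summits in Silc1-/- injured, 7 in Silc1-/- sham, 2 in wild-type injured and 1 in wild-type sham ganglia. In the same order of lists, Uchl1 had 3, 3, 4 and 3 and Tubb3 4, 5, 6 and 3. Schwann cell and satellite glia markers were nearly level, at 13.7, 14.5, 14.6 and 14.3 per 10000 for 10 genes.

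**Figure D2:**
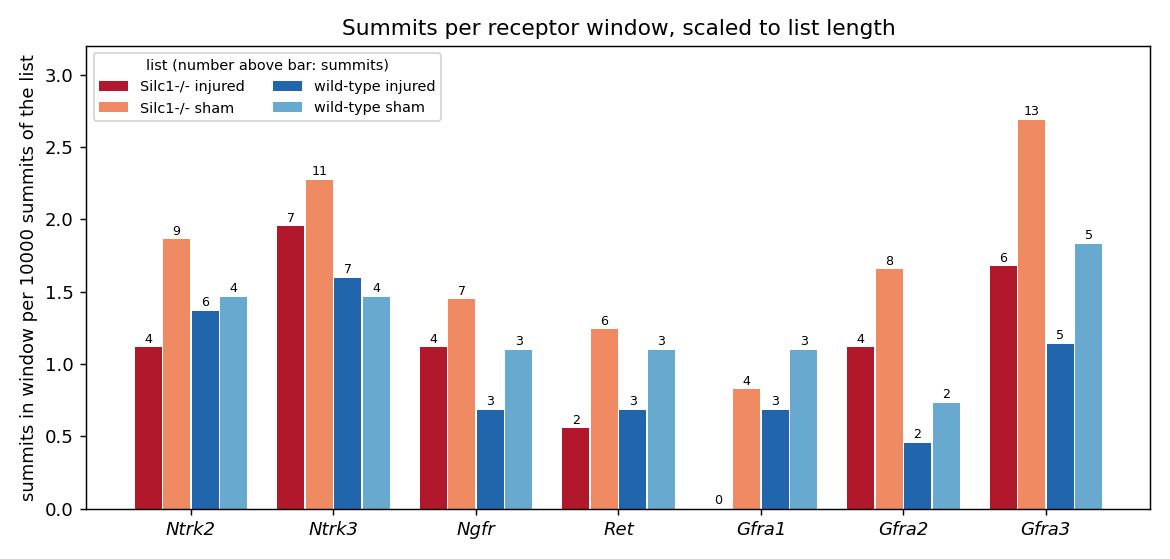
Summits in each receptor window per 10000 summits of the list (bars, 1 per list) with the summit number above each bar. Silc1-/- sham is the tallest bar for every receptor but Gfra1, for which Silc1-/- injured is at 0.

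After injury in Silc1-/- ganglia, all 7 receptors had fewer summits for the length of the list. The scaled sum was 0.636 times that in Silc1-/- sham (log2 ratio -0.65, counting interval -1.39 to 0.01), and the median over receptors was -0.61, against 0.02 over 19749 coding genes with a summit in either list. Ret (2 summits in injured, 6 in sham), Ntrk2 (4 and 9), Gfra3 (6 and 13) and Gfra1 (0 and 4) were lower by 1.5-fold or more, 4 of 7, against 16.3% of coding genes, and 0 of 7 were higher by as much, against 14.6%. For Gfra1 the size of the log2 ratio depends on the pseudocount, at -2.07 with 1 and -2.89 with 0.5. Its count of 0 allows up to 3. At scores of at least 5 and 10 its ratio was 0.0. With lists of equal length the receptors had 22 summits in injured and 21 in sham ganglia, and the log2 ratio of the sums was 0.064. Per receptor it was then 0.0 for Ntrk2, Ret and Gfra1 and 0.26 for Gfra3, so none of the 4 calls held.

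In wild type the numbers were closer. The receptors had 29 summits in injured and 24 in sham ganglia, which is fewer for the length of the list (log2 ratio of the scaled sums -0.40, interval -1.24 to 0.43). The direction thus turns with the scaling. The median over receptors was -0.53, against -0.07 over 19332 coding genes, but 0 of 7 were lower by 1.5-fold or more, against 11.5%, and 0 of 7 higher, against 18.9%. Ngfr, Ret, Gfra1, Gfra2 and Gfra3 each had the same number of summits in injured and sham, so their negative ratios restate the longer injured list. Ntrk2 had 6 and 4, and Ntrk3 7 and 4. Both injury comparisons use different lists, but the genotype comparisons that follow use the same lists again.

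Between genotypes, Gfra2 was the receptor past 1.5-fold in both treatments, with 4 summits in Silc1-/- against 2 in wild type after injury and 8 against 2 after sham. Ngfr (4 against 3 and 7 against 3) and Gfra3 (6 against 5 and 13 against 5) also had more in Silc1-/-, as did Ntrk3 for the length of the lists. Over all receptors the log2 ratio of Silc1-/- to wild type was 0.18 after injury (interval -0.62 to 1.00) and 0.44 after sham (-0.26 to 1.20). Neither direction was stable: the ratio was -0.17 after injury within 10 kb, and after sham it was -0.18 at equal list lengths and -0.029 and -0.034 at scores of at least 5 and 10. After injury 1 of 7, Gfra2, was higher by 1.5-fold or more (14.0% of coding genes) and 1 of 7, Gfra1, lower (17.9%). Gfra1 had 0 summits against 3, and the size of its ratio again depends on the pseudocount. At a score of at least 5 Gfra1 had 0 against 0 after injury. After sham 1 of 7, Gfra2, was higher (17.1%) and 0 of 7 lower (20.6%), and the median over receptors was 0.33, against -0.17 over 19479 coding genes. At a score of at least 5 Gfra2 had 0 summits against 1 after injury and 2 against 2 after sham.

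The numbers per receptor are too small to separate lists. For 26 of the 28 pairs of a receptor and a comparison an exact interval of the ratio could be computed without a pseudocount, and 0 of the 26 left out equality. The widest was that of Gfra2 in wild type, with 2 summits in injured and 2 in sham ganglia (log2 ratio -0.68, interval -4.47 to 3.10). No ratio is given for Gfra1 against the Silc1-/- injured list, which had 0 summits.

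**Figure D3:**
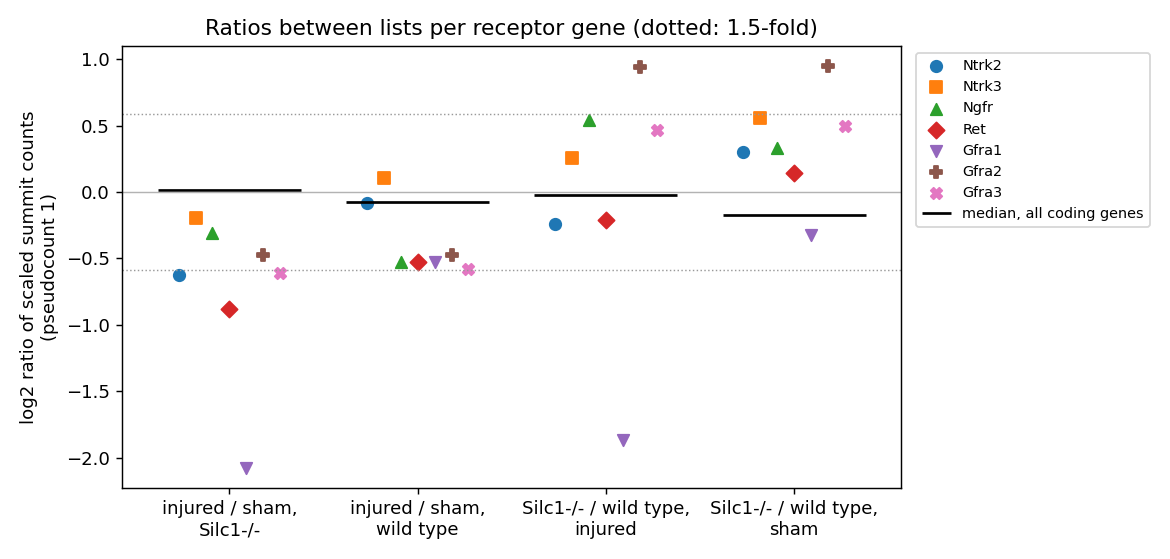
Log2 ratio of scaled summit counts (pseudocount of 1) for each receptor in the 4 comparisons, with the median over all coding genes (black line) and the 1.5-fold limits (dotted). All 7 receptors lie below 0 for injured over sham in Silc1-/- and 6 of 7 in wild type; the lowest points, of Gfra1, come from 0 summits in Silc1-/- injured and depend on the pseudocount.

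The receptors divide sensory neurons into classes, and markers of these classes were set beside them. In summits per 10000, peptidergic markers (9 genes) had 4.47 in Silc1-/- injured, 6.0 in Silc1-/- sham, 5.93 in wild-type injured and 3.67 in wild-type sham ganglia. Their neuropeptide genes Calca and Adcyap1 had 1 summit each over the 4 lists, while Bmpr1b, a receptor for bone morphogenetic proteins, had 20, Tac1, the substance P gene, 14, and Sstr2, a somatostatin receptor, 13. Gfra3, which marks part of this class, had 29 summits, of which 14 lay at ends of neighbouring genes. Non-peptidergic markers (9 genes) had 11.2, 10.97, 11.4 and 7.33 per 10000, with most at Plxnc1, a semaphorin receptor (36), Prkcq, a protein kinase (29), Lpar3, a lysophosphatidic acid receptor (27), and P2rx3, an ATP-gated channel (19). The itch receptor gene Mrgpra3 had none. Ret, Gfra1 and Gfra2 had 14, 10 and 16, or 9.59, 3.12 and 8.43 per 100 kb of window, against a median of 12.6 for these markers.

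Markers of C-fibre low-threshold mechanoreceptors (6 genes) had 2.23, 3.72, 3.42 and 1.47 per 10000, with most at Tafa4, a secreted protein gene (18), and Zfp521, a zinc finger factor gene (15). A-fibre mechanoreceptor markers (9 genes) had 13.4, 13.7, 11.4 and 10.997, led by the very long Cntnap2 (95) and by Nefh, a neurofilament gene (23), and Cadps2, a vesicle release gene (22). Proprioceptor markers (8 genes) had 5.03, 7.24, 7.53 and 7.70, led by Whrn, a scaffold protein gene (28), and Heg1 (15), with 13 at Pvalb, which encodes the calcium-binding protein parvalbumin of proprioceptors, and 13 at Spp1, the osteopontin gene. Ntrk2 had 23 in a window of 427.5 kb and Ntrk3 29 in one of 501.0 kb. These are 5.38 and 5.79 summits per 100 kb, against a median of 9.84 over coding genes. Of the markers, Whrn had 15.5 per 100 kb, Pvalb 11.3, Heg1 8.01 and Cntnap2 4.06. For injured over sham in Silc1-/- ganglia the median log2 ratio was -0.41 for peptidergic, -0.02 for non-peptidergic, -0.28 for C-fibre, -0.04 for A-fibre and -0.49 for proprioceptor markers. It was 0.02 over coding genes with a summit in either list, while the class medians also take in genes with none. For the same comparison in wild type the medians were 0.19, 0.50, 0.46, -0.36 and 0.12, where that of the receptors was -0.53 and that of coding genes -0.07.

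Open gene ends were also counted for each class, and a difference between classes was not tested. Proprioceptor markers had one in 0 of 8 genes in Silc1-/- injured, 0 in Silc1-/- sham, 3 in wild-type injured and 1 in wild-type sham ganglia, and Ntrk3, the receptor of this class, had none in any list. C-fibre markers had 1 of 6 in every list, at Zfp521. A-fibre markers had 5, 4, 4 and 3 of 9. Of these 9, 3 (Nefh, Maf and Mafa) had one in every list and 4 in none, against 40.8% and 43.4% of coding genes. Ntrk2 was open at its start in every list. Non-peptidergic markers had 5, 4, 4 and 4 of 9 and peptidergic markers 3, 5, 4 and 2 of 9. Ret had none in any list, Gfra1 and Gfra3 had one in Silc1-/- sham alone, and Gfra2 in all lists but wild-type injured.

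Of the ligands, 8 genes, few were open at their ends: 1 in Silc1-/- injured, 1 in Silc1-/- sham, 0 in wild-type injured and 2 in wild-type sham ganglia. The most summits lay near Ntf5, the neurotrophin-4 gene (32), Pspn, the persephin gene (20), Artn, the artemin gene (19), and Nrtn, the neurturin gene (17), against 8 at Bdnf, 8 at Gdnf and 4 at Ntf3. These windows reach 50 kb past each gene end, and summits at neighbouring genes were not counted apart for the ligands. Ntf5 and Pspn had no open end in any list. Artn had one in Silc1-/- injured alone, Nrtn in wild-type sham alone and Bdnf in both sham lists. Adaptor and signalling genes downstream of the receptors were open at an end in 11, 15, 15 and 13 of 16, including Shc1, Grb2, Gab1, Sos1, Frs2 and Plcg1 in every list. Sh2b1, with 33 summits in its window, had no open end in any list. Among 6 other receptors and co-receptors the numbers were 2, 3, 3 and 2, with the sortilin family genes Sort1 and Sorcs2 in every list, and Gfra4 and Gfral, which encode other co-receptors of the GFRα family, in none. Gfra4 had 3 summits and Gfral 1, all in Silc1-/- sham ganglia. In each list as deposited the adaptors had the larger share of open gene ends, and the ligands the smaller, with the receptors between. Over coding genes the shares were 45.6%, 50.9%, 51.9% and 46.2% in the same order of lists. The receptors' shares were within counting error of these, and the order of the 3 gene lists was not tested.

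**Figure D4:**
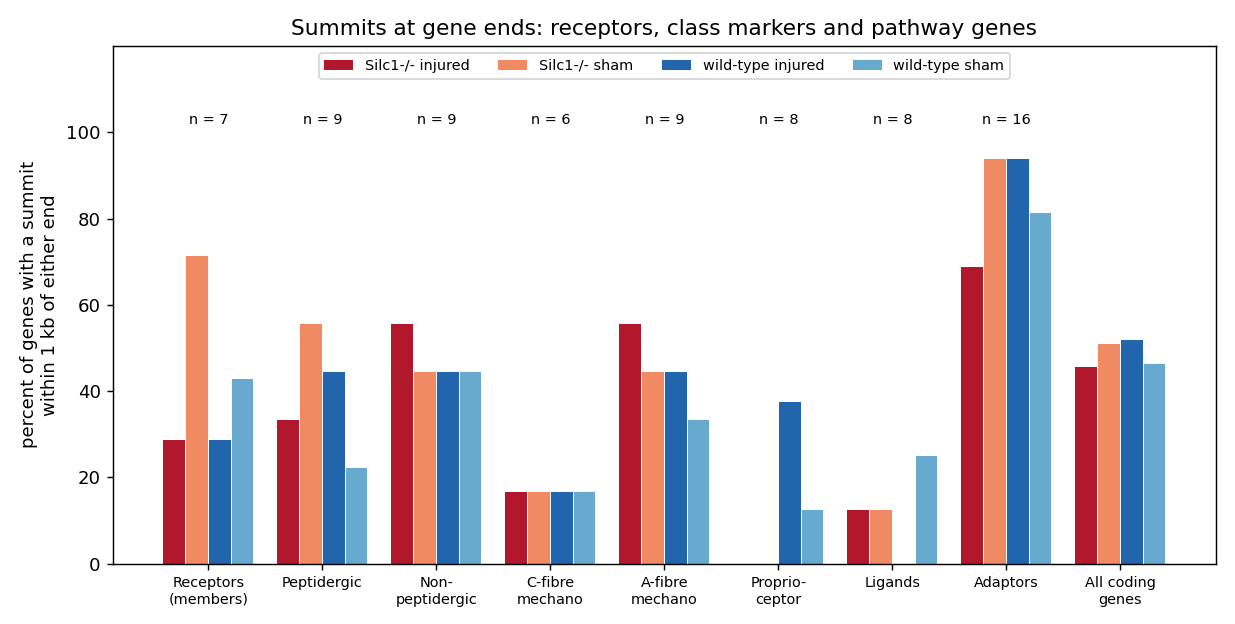
Percent of genes with a summit within 1 kb of either gene end, by list, for the receptors, 5 neuron class marker lists, ligands, adaptors and all 21887 coding genes. Receptors stand at 28.6%, 71.4%, 28.6% and 42.9%, adaptors at 68.8% to 93.8%, and ligands at 0% to 25.0%.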

How the data were processed

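ATAC-seq was measured in 12 libraries in 4 groups of 3, and 1 list of summits per group was used. The submitters' processing notes name Bowtie2, MACS2 and mm10. No version, filter or shift for the transposase was given in the sources used here, nor whether reads of a group's libraries were merged. The authors deposited 1 score per summit, a −log10 value; the sources do not say whether of p or q, and the lowest, 1.30, equals −log10 of 0.05. Scores depend on depth, which is unknown, and describe summits within a list.

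Coordinates count from 1, and gene ends are those of RefSeq (GRCm38.p6); exons were not used here, and strand was taken from the promoter table for Ntrk2, Ngfr and Gfra1. Counts were scaled to the mean list length, with a pseudocount of 1 for ratios. Intervals are 95% Wilson or exact (Clopper-Pearson) intervals and, like the limit of 3 counts for a count of 0, cover counting error only. A gene was called at a fold of 1.5.

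The receptors and gene lists were chosen with earlier results of these data known. Named were all receptors, their loci in all lists and up to 5 of the highest-scoring loci of each. The rule for other lists was the up to 4 genes with the most summits and those with none, but not all of these are named here. The 3 genes nearest in pattern to each of 3 receptors were also named. Other genes and weaker sites were named after their values were seen. Merging and window counting were tested on simulated lists whose sites lay much farther apart than the joining distance. The joining of close neighbouring sites was thus not tested. Alternatives were lists cut to equal length, windows of 10 and 100 kb, score minimums of 5 and 10, joining distances of 50, 500 and 1000 bp, gene interiors left out, a pseudocount of 0.5 and gene ends within 500 and 2500 bp. Python 3.11.15, numpy 2.4.6, pandas 2.3.3, scipy 1.17.1 and matplotlib 3.10.9 were used.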

Additional observations from a re-analysis of the deposited data

Results flagged for a closer look

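For 3 receptors the scaled summit ratio moved one way in 1 genotype or treatment and the other way in the other; each value rests on 1 list per group, and the difference was not tested. For Ntrk2, the log2 ratio of Silc1-/- to wild type was -0.24 after injury and 0.30 after sham, a difference of -0.54. For Ret the same ratio was -0.21 after injury and 0.14 after sham, a difference of -0.35. For Ntrk3, the ratio of injured to sham was -0.20 in Silc1-/- and 0.11 in wild type, a difference of -0.30. These come from 2 to 11 summits per list.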

How the results depend on the processing

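No paired analysis was possible because each group has 1 list, and for the same reason no library could be left out. The main limit is that 40 of 47 loci in 1 list scored under 5, so counts follow the score minimum and the list length. Summits at the receptors, 27 in Silc1-/- injured, 58 in Silc1-/- sham, 29 in wild-type injured and 24 in wild-type sham as deposited, were 12, 18, 16 and 13 at scores of at least 5, and 5, 7, 7 and 6 at scores of at least 10. At equal list lengths Silc1-/- sham had 21 and wild-type injured 18. Within 10 kb Silc1-/- injured had 13 and wild-type injured 18, and within 100 kb wild-type injured had 44. Receptors with a summit at a gene end, 2, 5, 2 and 3 as deposited, numbered 0 in Silc1-/- injured, 1 in Silc1-/- sham and 1 in wild-type sham at scores of at least 5, and 0, 1, 1 and 1 in the 4 lists at scores of at least 10. At equal lengths they were 1 in Silc1-/- injured and 1 in Silc1-/- sham.

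The share of receptor loci in all 4 lists, 14.5%, was 7.84% within 10 kb, 25.0% and 36.4% at scores of at least 5 and 10, 24.4% at equal lengths and 7.45% with joining at 50 bp. Over all loci the shares were 25.1% and 30.8% at those scores, 22.9% at equal lengths and 6.88% at 50 bp. The share in Silc1-/- sham alone, a result added after seeing the data, was 21.4% and 18.2% at scores of at least 5 and 10 and 12.2% at equal lengths, instead of 36.8%; over all loci it was 15.3%, 9.63% and 12.4%, instead of 21.1%. The log2 ratio of the sums for injured over sham in Silc1-/- ganglia turned to 0.064 at equal lengths and was -1.10 within 10 kb. The other 27 of 28 alternative values of such ratios stayed within the counting interval, but 4 of them, for Silc1-/- over wild type, also turned sign: -0.17 after injury within 10 kb and, after sham, -0.029, -0.034 and -0.18 at scores of at least 5 and 10 and at equal lengths. Of 49 alternative values for a called receptor, 7 turned sign. Gfra2 in Silc1-/- over wild type was -0.86 after injury at scores of at least 5, and -0.34 and -1.09 after sham at scores of at least 5 and 10. For injured over sham in Silc1-/-, Gfra3 was 0.34 at scores of at least 10 and 0.26 at equal lengths, and Ntrk2 and Ret were each 0.23 at scores of at least 10. The cause was not tested.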

Other observations

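Coding genes with summit numbers most like those of the receptors were sought among those with at least 10 summits over the 4 lists, by the Euclidean distance of counts per 10000 over 4 lists. Ntrk2, with 4, 9, 6 and 4 summits in Silc1-/- injured, Silc1-/- sham, wild-type injured and wild-type sham, had the same numbers as Cacng2, Caml and Thpo (distance 0). Ntrk3 had the same 4 numbers as Matn3 (distance 0), and Camk1d and Vps33a were next (0.207 each). For Gfra3 the nearest were Wdr70 (0.207), Ccdc60 (0.228) and Snx25 (0.308).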
